A study of Mus musculus with 44 samples.

Results

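Of the 24220 gene symbols measured in either of a pair of deposited tables, 9 were chosen by name: the matrix metalloproteinase genes Mmp2, Mmp9, Mmp11, Mmp14 and Mmp15, the genes of the tissue inhibitors of metalloproteinases Timp1, Timp2 and Timp3, and Reck. All 9 were present in both tables, and all 9 passed the filter on low values in each. RNA had been sequenced from ovarian follicles of wild-type CD-1 mice, an outbred strain, in an experiment on perfluorononanoic acid (PFNA), a persistent fluorinated surfactant. In the maturation window, the gonadotropin-dependent growth of the follicle, 11 controls had received the solvent DMSO and 10 samples PFNA. In the ovulation window, 12 controls had received hCG (human chorionic gonadotropin, which stands in for the ovulatory hormone surge) and 11 samples hCG together with PFNA. The PFNA dose, the length of exposure, the age of the animals and the number of follicles or animals behind a library were not given in the labels.

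Matrix metalloproteinases (MMPs) are zinc-dependent proteases that cleave collagens, proteoglycans and other matrix proteins, and most are made as inactive zymogens that lose their propeptide on activation. TIMPs bind active MMPs and block them, and RECK is a membrane-anchored glycoprotein that restrains several of them at the cell surface. In the ovary these genes are known for the remodelling of the follicle wall before rupture, and Timp1 is known as a gene that rises in granulosa cells after the ovulatory surge in rodents.

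The genes lie apart from one another on GRCm38 except that some share a chromosome. The secreted gelatinases Mmp2 and Mmp9 lie at chr8:92827291-92853420 and chr2:164940780-164955850, both on the plus strand. Mmp11, the gene of stromelysin-3, lies at chr10:75923222-75936496 on the minus strand. The membrane-type genes Mmp14 and Mmp15 lie on the plus strand at chr14:54431612-54445364 and chr8:95352268-95375080. Timp1 lies at chrX:20870166-20874735 on the plus strand, Timp2 at chr11:118301069-118355740 on the minus strand, Timp3 at chr10:86300372-86349506 on the plus strand and Reck at chr4:43875530-43944806 on the plus strand. The libraries were poly-A selected, and each value covers a whole gene rather than an exon.

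Promoter sequences (RefSeq, GRCm38.p6, 250 bases before to 50 after the start) were found for 7 of the 9 genes, all but Mmp2 and Mmp9. The promoters of the 3 TIMP genes are shown because these genes moved in opposite directions in the ovulation window, and those of Mmp11 and Mmp15 because Mmp11 changed direction between the windows while Mmp15 rose in both. Each is written 5′ to 3′ on the strand of its gene, and capitals mark the GC box, GGGCGG on either strand. The windows are chrX:20869916-20870215 (plus strand) for Timp1, chr11:118355362-118355661 (minus) for Timp2, chr10:86300162-86300461 (plus) for Timp3, chr10:75932453-75932752 (minus) for Mmp11 and chr8:95352046-95352345 (plus) for Mmp15.
Timp1: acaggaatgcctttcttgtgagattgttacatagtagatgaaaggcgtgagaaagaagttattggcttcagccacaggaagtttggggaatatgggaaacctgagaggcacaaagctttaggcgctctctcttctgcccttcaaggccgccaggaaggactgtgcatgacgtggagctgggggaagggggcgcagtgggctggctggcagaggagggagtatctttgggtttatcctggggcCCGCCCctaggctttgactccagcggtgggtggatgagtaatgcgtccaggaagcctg
Timp2: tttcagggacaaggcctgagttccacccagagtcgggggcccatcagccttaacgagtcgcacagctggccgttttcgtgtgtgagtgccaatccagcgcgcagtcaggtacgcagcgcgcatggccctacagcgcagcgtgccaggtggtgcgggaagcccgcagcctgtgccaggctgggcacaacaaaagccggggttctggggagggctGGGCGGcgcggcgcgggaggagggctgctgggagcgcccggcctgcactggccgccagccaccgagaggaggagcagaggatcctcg
Timp3: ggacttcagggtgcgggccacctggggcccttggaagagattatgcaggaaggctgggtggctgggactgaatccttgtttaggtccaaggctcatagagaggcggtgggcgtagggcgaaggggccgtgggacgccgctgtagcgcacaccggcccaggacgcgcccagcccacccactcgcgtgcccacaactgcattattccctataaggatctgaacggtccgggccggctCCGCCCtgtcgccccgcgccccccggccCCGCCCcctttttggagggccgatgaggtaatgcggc
Mmp11: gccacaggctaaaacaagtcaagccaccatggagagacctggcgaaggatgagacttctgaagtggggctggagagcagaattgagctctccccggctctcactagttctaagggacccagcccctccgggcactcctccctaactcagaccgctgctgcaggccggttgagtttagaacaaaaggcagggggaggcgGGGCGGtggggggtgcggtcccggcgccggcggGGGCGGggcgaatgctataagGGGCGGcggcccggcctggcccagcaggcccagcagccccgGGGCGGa
Mmp15: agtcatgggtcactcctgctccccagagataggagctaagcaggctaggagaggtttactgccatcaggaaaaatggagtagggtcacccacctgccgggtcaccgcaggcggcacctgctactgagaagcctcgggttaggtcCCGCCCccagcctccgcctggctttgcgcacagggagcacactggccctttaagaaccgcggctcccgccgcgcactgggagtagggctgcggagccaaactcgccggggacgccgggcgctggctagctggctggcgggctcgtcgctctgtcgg

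A GC box was present in all 7 promoters found and in 35.7% of the 32851 promoters of the table. Mmp11 held 4, Reck 3, Mmp14 and Timp3 2 each, and Mmp15, Timp1 and Timp2 1 each. The GC content of the 7 windows ran from 55.0% in Timp1 to 69.3% in Reck, against a median of 52.7% over all promoters. The AP-1 motif TGANTCA was in none of the 7 and in 7.81% of all promoters. The RUNX motif TGTGGT was in Mmp14 alone of the 7 and in 16.8% of all. The peroxisome proliferator response element, in its direct-repeat form, was in none of the 7 and in 0.0396% of all. All motifs were searched on both strands. A match describes letters in this window only. Stretches that differ from a motif by a letter were not counted, such as TGAGTAA in the Timp1 window, so a motif not found is not a site shown absent.

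Ovulation libraries held 10600931 to 19511531 counts, while the number of reads behind the maturation TPM values is unknown. Granulosa markers were present, as the tissue label implies: Foxl2 averaged 1172 TPM in the maturation controls and 41.2 CPM in the ovulation controls. In the maturation window, 12 of 13 oocyte markers and 6 of 9 granulosa markers tested were lower with PFNA by the limma test. Of all genes tested there, 16.1% were lower and 13.3% higher. The summed oocyte markers lay at 186 to 279 TPM in controls and 10.5 to 429 TPM with PFNA, where the libraries were split. PFNA replicates 1, 2 and 10 had oocyte marker shares of 0.018%, 0.016% and 0.043% of the library total. The other PFNA libraries had 0.0011% to 0.0025%, and controls 0.019% to 0.028%. PFNA replicates 1 and 2 are left out together in an alternative below. With hCG and PFNA, all 5 smooth muscle markers tested and 6 of 7 endothelial markers were higher than with hCG alone by edgeR's test in the ovulation window, where 38.0% of all genes tested were higher. Of 9 granulosa markers 6 were higher and 2 lower there, and of 13 oocyte markers 8 were higher and none lower, while 35.2% of all genes tested were lower. Among 9 markers of theca and steroidogenic stroma tested there 5 were higher and 3 lower. Among 7 of fibroblast-like stroma 3 were higher and 1 lower. The summed smooth muscle markers lay at 35.0 to 149 CPM in controls and at 229 to 972 CPM with PFNA. The summed endothelial markers overlapped, at 37.7 to 133 CPM and 39.9 to 382 CPM, and so did the summed oocyte markers, at 101 to 375 CPM and 56.4 to 577 CPM. None of the marker genes measured was at 0 in every library of a group. The part of these shifts in the results on the MMP and TIMP genes was not tested. In bulk libraries such as these, fewer cells of a type and less RNA per cell cannot be told apart.

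In the maturation window, 3 of the 9 genes rose with PFNA (Mmp11, Mmp14 and Mmp15, all proteases), none of the 9 fell, and 6 did not pass the test. Over all 13712 genes tested by limma on log2(TPM + 1), with an adjusted p under 0.05 as the call, 13.3% were higher and 16.1% lower. The median log2 fold change of the 9 genes was 0.46, against 0.02 over all genes tested. For none of the 9 were the groups free of overlap, a separation found in 1.28% of all genes.

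**Figure D1:**
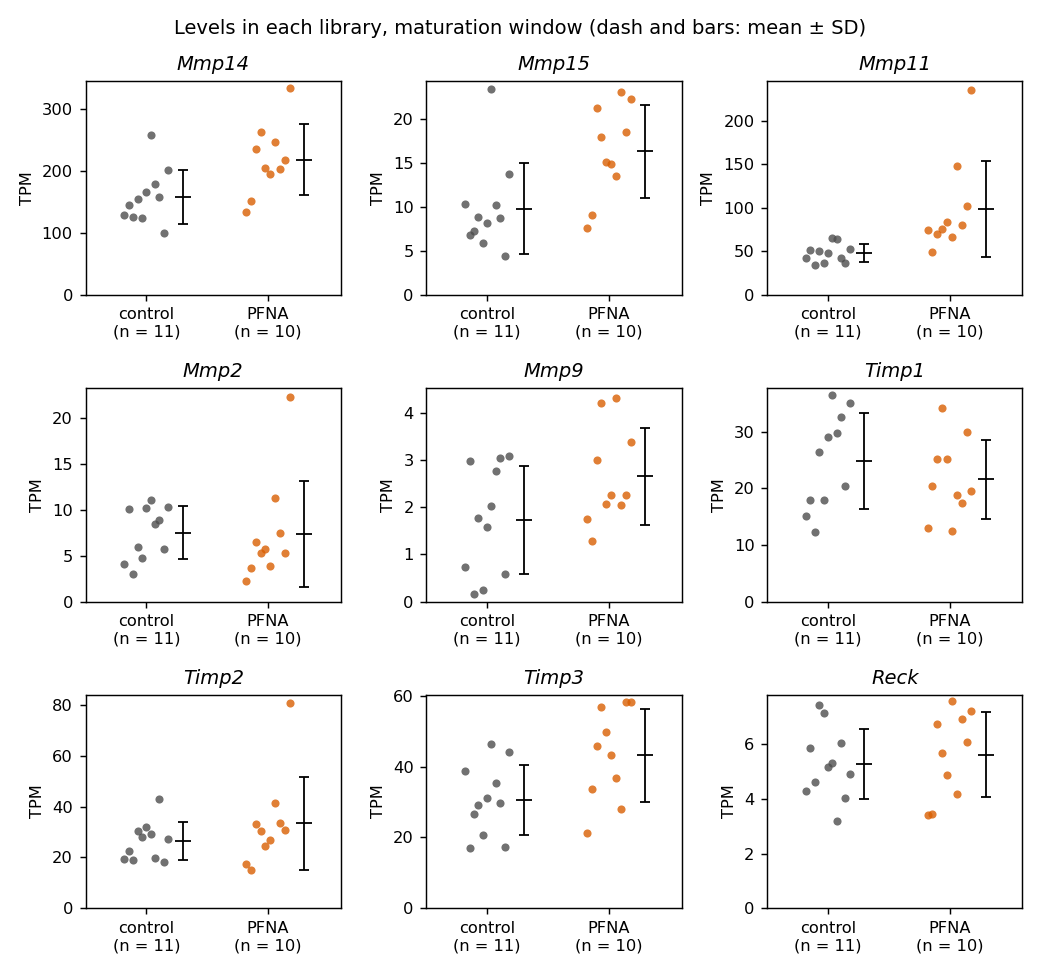
TPM of the 9 genes in each maturation library (y axis, from 0), with 11 control libraries in grey and 10 PFNA libraries in orange; dash and bars are the mean ± SD. Of the PFNA libraries of Mmp11, 9 lie above every control, and the highest, at 236 TPM, stands apart from the rest.

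Mmp11 encodes a protease that is activated inside the cell by furin-type convertases. It had 34.5 TPM in the lowest, 48.3 in the median and 64.8 in the highest control library, and 48.9, 78.0 and 236 TPM with PFNA. The groups overlapped only through the lowest PFNA library, and the other 9 of 10 lay above every control. The log2 fold change was 0.92 (SE 0.20, limma adjusted p = 0.0020). Without PFNA replicate 10, the library with 236 TPM, it was 0.76 (limma adjusted p = 0.0012). In the gene model of the maturation table Mmp11 overlaps Chchd10, a mitochondrial protein gene on the opposite strand with 121 ± 17.5 TPM (SD, n = 11) in controls. The use of strand in counting was not stated, so reads of overlapping genes on opposite strands cannot be told apart, and Chchd10 itself had a log2 difference of 0.18 (limma adjusted p = 0.28).

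Mmp14 encodes MT1-MMP, the membrane-type enzyme that activates pro-MMP2 together with TIMP2. Control libraries had 99.6 TPM at the lowest, 154 at the median and 258 at the highest, and PFNA libraries had 134, 211 and 333 TPM. The ranges overlapped over most of their span, with 8 of 10 PFNA libraries above the control median and 2 above every control. The log2 fold change was 0.46 (SE 0.16, limma adjusted p = 0.030). This call was lost when any of 6 single libraries was left out, PFNA replicates 4, 7 and 10 and control replicates 3, 6 and 11, where the limma adjusted p lay between 0.051 and 0.059.

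Mmp15 encodes another membrane-type enzyme, MT2-MMP. Its controls had 4.39 TPM at the lowest, 8.74 at the median and 23.4 at the highest, against 7.59, 16.6 and 23.1 TPM with PFNA. The highest control was above every PFNA library, while 9 of 10 PFNA libraries were above the control median. On the log2 scale the rise was 0.72 (SE 0.23, limma adjusted p = 0.019). With the oocyte transcript share of each library as a covariate it was 0.78 and no longer passed (limma adjusted p = 0.057).

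The gelatinases did not pass the test in this window. Mmp2 (gelatinase A) had 2.98, 8.41 and 11.1 TPM in the lowest, median and highest control and 2.27, 5.53 and 22.2 TPM with PFNA. Here 8 of 10 PFNA libraries lay below the control median while 2 lay above every control, and the log2 difference was -0.16 (SE 0.28, limma adjusted p = 0.70). Mmp9 (gelatinase B), the lowest of the 9, had 0.170, 1.77 and 3.08 TPM in controls and 1.29, 2.26 and 4.33 TPM with PFNA. Its log2 difference was 0.51 (SE 0.24, limma adjusted p = 0.11), on a scale that understates the change of low genes, and with a pseudocount of 0.1 in place of 1 it was 0.92 (limma adjusted p = 0.11).

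None of the 4 inhibitor genes passed the test in the maturation window. Timp1, whose product binds MMP9 and its proenzyme, had 12.3, 26.4 and 36.5 TPM in controls and 12.4, 19.9 and 34.2 TPM with PFNA, a log2 difference of -0.18 (SE 0.20, limma adjusted p = 0.53). Timp2, whose product both inhibits MMP2 and takes part in its activation, had 18.2, 27.4 and 43.1 TPM against 15.0, 30.5 and 80.7 TPM, a log2 difference of 0.23 (SE 0.22, limma adjusted p = 0.45). Timp3, whose product stays bound to the matrix, had 17.1, 29.7 and 46.3 TPM against 21.2, 44.4 and 58.2 TPM. Of its PFNA libraries 8 of 10 were above the control median and 4 above every control, and the log2 difference was 0.49 (SE 0.20, limma adjusted p = 0.069). That of Timp3 passed the test when PFNA replicate 1 (limma adjusted p = 0.019), PFNA replicate 8 (0.049), control replicate 8 (0.039) or control replicate 12 (0.047) was left out. Reck had 3.20, 5.16 and 7.42 TPM against 3.41, 5.88 and 7.59 TPM, and a log2 difference of 0.06 (SE 0.14, limma adjusted p = 0.77).

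In the ovulation window, 4 of the 9 genes rose with PFNA (Mmp9, Mmp15, Timp2 and Timp3), 2 fell (Timp1 and Mmp11) and 3 did not pass edgeR's quasi-likelihood test. Of all 13441 genes tested there, 38.0% were higher and 35.2% lower, so calls were common and 6 of 9 is close to that background. The median log2 fold change of the 9 genes was 0.19, against 0.04 over all genes. Timp1 was the single gene of the 9 whose groups did not overlap, and 26.0% of all genes were separated in that way. Levels in this window are CPM, counts scaled to a library total of 1000000 after TMM normalization.

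**Figure D2:**
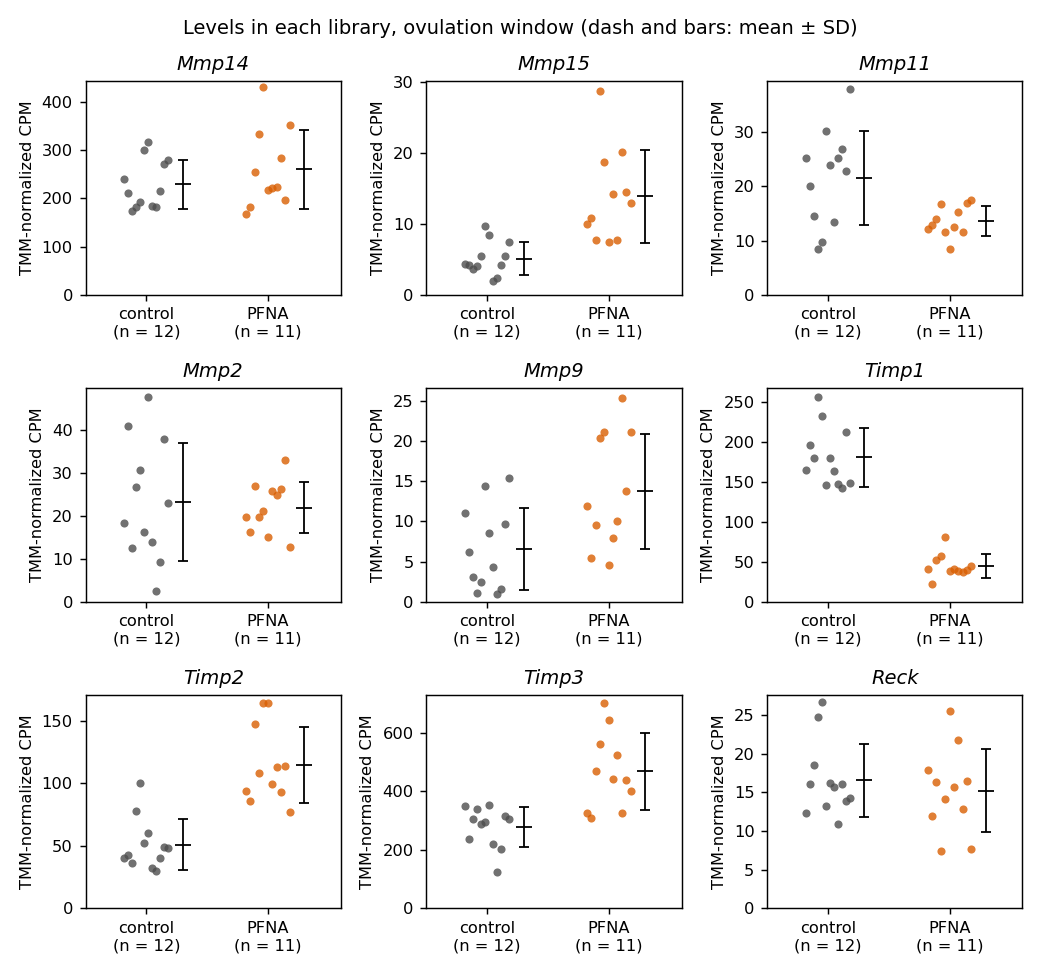
TMM-normalized CPM of the 9 genes in each ovulation library (y axis, from 0), with 12 control libraries in grey and 11 PFNA libraries in orange; dash and bars are the mean ± SD. All 11 PFNA libraries of Timp1 lie at 81.4 CPM or lower, and all 12 controls at 142 CPM or higher.

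Timp1 fell 4.03-fold. The 12 control libraries had 142 CPM at the lowest, 173 at the median and 256 at the highest, and the 11 PFNA libraries had 21.9, 40.6 and 81.4 CPM. Every PFNA library was below every control. On the log2 scale the change was -2.01 (SE 0.16, edgeR adjusted p = 3.0e-11). Syn1, in which Timp1 lies on the opposite strand, moved the other way from 1.90 ± 0.61 to 4.55 ± 1.73 CPM (SD, n = 12 and 11; edgeR adjusted p = 3.5e-05).

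Timp2 and Timp3 rose. Timp2 had 30.1, 45.4 and 100 CPM in the lowest, median and highest control and 77.3, 108 and 164 CPM with PFNA. Of the 11 PFNA libraries, 6 were above every control and all 11 above the control median. The log2 fold change of Timp2 was 1.18 (SE 0.18, edgeR adjusted p = 3.4e-06).

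Timp3 had 125, 301 and 352 CPM in controls and 308, 443 and 702 CPM with PFNA. Here 8 of 11 PFNA libraries were above every control. Timp3 thus had a log2 change of 0.75 (SE 0.16, edgeR adjusted p = 0.00016). The matrix gene Fn1 (fibronectin), whose levels followed those of Timp3 most closely among the genes searched, rose by 0.54 on the log2 scale (SE 0.18, edgeR adjusted p = 0.0081). The smooth muscle sums given above lay above every control in each PFNA library. The sums of endothelial, theca and fibroblast-like stroma markers overlapped between groups. The part of any of these in the rise of Timp2 and Timp3 was not tested. Reck did not pass the test: controls had 10.9, 15.9 and 26.7 CPM and PFNA libraries 7.37, 15.8 and 25.5 CPM, a log2 difference of -0.12 (SE 0.18, edgeR adjusted p = 0.57).

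Of the membrane-type proteases, Mmp15 rose 2.72-fold while Mmp14 did not pass the test. Mmp15 had 1.92, 4.32 and 9.74 CPM in controls and 7.39, 13.0 and 28.8 CPM with PFNA. In 8 of 11 PFNA libraries it was above every control, and the log2 fold change was 1.44 (SE 0.26, edgeR adjusted p = 2.3e-05). Mmp14 had 174, 212 and 316 CPM against 167, 223 and 430 CPM, so the groups overlapped, with a log2 difference of 0.19 (SE 0.15, edgeR adjusted p = 0.26).

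Mmp9 rose 2.09-fold from a low level. Its gene model in the ovulation table starts at 164948219 rather than 164940780, so the 2 tables do not count the same stretch. Controls had 0.972, 5.27 and 15.4 CPM and PFNA libraries 4.54, 11.9 and 25.5 CPM. The groups overlapped widely, with 4 of 11 PFNA libraries above every control and 10 of 11 above the control median. The log2 fold change of Mmp9 was 1.06 (SE 0.42, edgeR adjusted p = 0.025). The call was lost with the oocyte transcript share as a covariate (log2 fold change 0.97, edgeR adjusted p = 0.089) and without PFNA replicate 9 (0.94, edgeR adjusted p = 0.051).

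Mmp11 fell by 0.66 on the log2 scale (SE 0.20, edgeR adjusted p = 0.0045), opposite to its rise in the maturation window. Its controls had 8.37, 23.4 and 38.0 CPM and its PFNA libraries 8.49, 12.9 and 17.4 CPM. All 11 PFNA libraries were below the control median, yet none was below the lowest control. The ovulation table uses a shorter gene model of Mmp11, which ends at 75932502 rather than 75936496. Its overlap with Chchd10 in this table was not determined. Chchd10 fell in this window as well, by 0.40 on the log2 scale (SE 0.14, edgeR adjusted p = 0.015). Mmp2 did not differ by more than its spread: controls ran from 2.54 to 47.6 CPM with a median of 20.7, PFNA libraries from 12.7 to 33.0 with a median of 21.1, and the log2 difference was -0.09 (SE 0.30, edgeR adjusted p = 0.81).

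The make-up of the TIMP transcripts was described with levels per transcript length. Among the ovulation controls Timp1 was the highest of the 9 genes, with a median of 543 length-corrected CPM, and no control of Mmp14, the next in order (median 196), reached the lowest Timp1 library. With PFNA the order was Timp3 (median 287), Mmp14 (211), Timp1 (140) and Timp2 (86.6), and the ranges of these neighbours overlapped. In the sum of the 3 TIMP transcripts, the median share of Timp1 was 75.0% in controls and 30.1% with PFNA, that of Timp3 20.4% and 55.4%, and that of Timp2 4.59% and 17.9%. For each of the 3 shares the groups did not overlap. These shares and the ratios that follow are descriptions with no test, and they follow from the levels above.

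**Figure D3:**
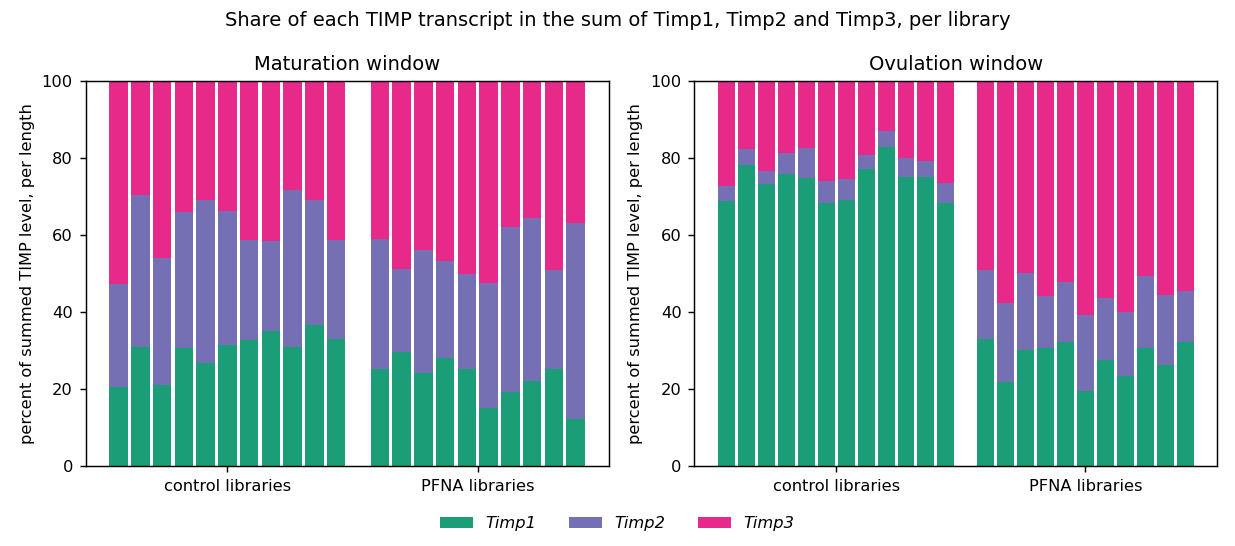
Stacked bars give the percent of Timp1, Timp2 and Timp3 in their length-corrected sum, one bar per library, for the maturation window (11 control and 10 PFNA libraries) and the ovulation window (12 and 11). In the ovulation controls Timp1 makes up 68.3% to 82.9% of the sum, and with PFNA 19.6% to 33.0%.

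In the maturation window the order of the leading genes was the same in both groups. Mmp14 (median 154 TPM) and Mmp11 (48.3) led in the controls and again with PFNA (211 and 78.0). Timp3, Timp2 and Timp1 followed in both groups with overlapping ranges, and Mmp9 was last in both. The ranges of Mmp15, Mmp2 and Reck, which came between, overlapped in the controls. With PFNA the ranges of Mmp15 and Reck did not overlap, and Reck (median 5.88) stood above Mmp2 (5.53), the reverse of the controls, with overlapping ranges. The Timp1 share of the TIMP sum ran from 20.6% to 36.6% in controls and from 12.3% to 29.5% with PFNA, with 3 of 10 PFNA libraries below every control.

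Ratios of a protease transcript to a TIMP transcript were taken within each library on the log2 scale, per length. MT1-MMP, the product of Mmp14, is known to be inhibited by TIMP2 and TIMP3 and only poorly by TIMP1. Across the ovulation libraries Mmp14/Timp1 ran from -2.37 to -0.83 in controls and from 0.14 to 1.18 with PFNA, so that Mmp14 was below Timp1 in every control and above it in every PFNA library. Mmp14/Timp2 went the other way, from a median of 2.64 in controls to 1.29 with PFNA, with 4 of 11 PFNA libraries below every control. Mmp14/Timp3 went the same way as Mmp14/Timp2, from a median of 0.34 to -0.34, with 5 of 11 PFNA libraries below every control. Mmp2/Timp2 had a median of -1.10 in controls and -2.14 with PFNA, with overlapping groups. Among the maturation libraries Mmp14/Timp1 had a median of 2.58 in controls and 3.30 with PFNA, and 5 of 10 PFNA libraries exceeded every control. Mmp14/Timp2 there had medians of 2.67 and 2.85, with 1 of 10 PFNA libraries outside the control range. For Mmp14/Timp3 the medians were 2.41 and 2.29, and no PFNA library left the control range. Mmp2/Timp2 had medians of -1.66 and -2.27, with 2 of 10 PFNA libraries below every control.

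The PFNA effects of both windows were then compared gene by gene, as the ovulation effect minus the maturation effect, each fitted with limma in its own table. Of 11215 genes tested in both tables, 32.0% had a higher and 35.6% a lower effect in the ovulation window at an adjusted p under 0.05, and of the 9 genes 1 was higher and 2 were lower. Timp1 differed by -1.85 (SE 0.25, limma adjusted p = 2.8e-08), with log2 effects of -0.18 in maturation and -2.03 in ovulation. Mmp11 differed by -1.45 (SE 0.28, limma adjusted p = 1.7e-05), from 0.92 to -0.53. Timp2 differed by 0.97 (SE 0.28, limma adjusted p = 0.0023), from 0.23 to 1.20.

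For the other 6 genes the difference did not pass the test, which does not show that the effects were alike. Mmp15 rose in both windows, and its effects differed by 0.55 (SE 0.32, limma adjusted p = 0.12). Mmp9 and Timp3 rose in the ovulation window alone, but the differences of their effects were 0.64 (SE 0.45, limma adjusted p = 0.20) and 0.26 (SE 0.26, limma adjusted p = 0.37). Mmp14 rose in the maturation window alone, with a difference of -0.31 (SE 0.21, limma adjusted p = 0.20). The windows differ in hormone, stage and processing of the table, and these cannot be told apart.

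**Figure D4:**
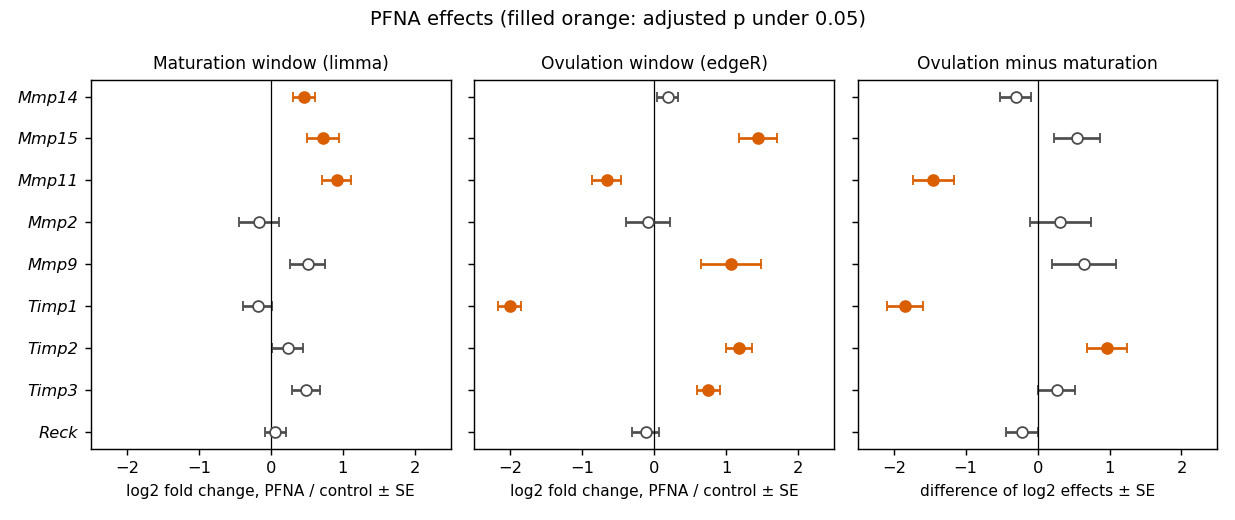
Log2 fold change of PFNA against control (x axis) with its SE for each of the 9 genes in the maturation window (limma), in the ovulation window (edgeR), and the difference of the limma effects, ovulation minus maturation. Filled orange points passed an adjusted p under 0.05; Timp1 is the farthest from 0 in the ovulation panel at -2.01, and Mmp11 changes side between the windows.

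The covariation of the 9 genes among libraries was examined after each group's mean was removed. In all, 72 relations were computed, 36 per window, and tested by permutation within groups (100000 resamples). Of these, 35 had a Benjamini-Hochberg adjusted Pearson p under 0.05, 21 of them in the maturation window and 14 in the ovulation window. The share of all gene pairs that would pass the same test was not computed, so these counts cannot be read as a trait of the 9 genes. In the maturation window (21 libraries) Mmp14 and Mmp15 followed each other most closely, with Pearson's r = 0.86 (permutation p = 1e-05, the smallest these resamples can give, adjusted 0.00072) and Spearman's rho = 0.77 (permutation p = 0.00019, adjusted 0.0020). Without the 2 libraries farthest from the median of Mmp14, r was 0.78. Within the controls alone r was 0.92 and within the PFNA libraries 0.80.

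The same pair in the ovulation window (23 libraries) had r = 0.68 (permutation p = 0.00065, adjusted 0.0033) and rho = 0.67 (permutation p = 0.00086, adjusted 0.0048), and r = 0.73 without the 2 farthest libraries. Mmp2 and Mmp11 had r = 0.82 in the maturation window (permutation p = 6e-05, adjusted 0.0013), rho = 0.76 (permutation p = 0.0001, adjusted 0.0018) and r = 0.75 without the 2 farthest. Timp2 and Timp3, which rose together in the ovulation window, also varied together within its groups, with r = 0.65 (permutation p = 0.0014, adjusted 0.0059), rho = 0.65 (permutation p = 0.0011, adjusted 0.0050) and r = 0.74 without the 2 farthest.

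Reck stood opposite to Mmp11 in the ovulation window, with r = -0.64 (permutation p = 0.00014, adjusted 0.0014), rho = -0.64 (permutation p = 0.00094, adjusted 0.0048) and r = -0.49 without the 2 farthest libraries. Libraries share their cell make-up and scaling across genes. The median correlation of Mmp14 in the maturation window with all 6497 genes searched was 0.22, so a positive value there was common. The part of cell make-up in these relations was not tested.

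For each of the 9 genes the gene with the most similar pattern was taken from those with a mean of at least 10 TPM or CPM (6497 genes in maturation, 8872 in ovulation), by the highest Pearson correlation after group means were removed. As the highest of a search, it carries no p. Among the maturation libraries Mmp14 was closest to Furin, the gene of a proprotein convertase (r = 0.96, rho = 0.94, over 21 libraries). Mmp2 was closest to Ccdc80 (r = 0.92), Mmp11 to Arhgef5 (r = 0.92), Timp2 to Psap, the prosaposin gene (r = 0.92), and Mmp15 to Ppp1r9b (r = 0.89). Timp1 was closest to Ifitm3 (r = 0.88), Reck to Ptprv (r = 0.85), Timp3 to Efnb1 (r = 0.83) and Mmp9 to Prcc (r = 0.80).

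In the ovulation window, over 23 libraries, Timp3 was closest to Fn1 (r = 0.82, rho = 0.70), Timp2 to Ecm1 (r = 0.85, rho = 0.80) and Timp1 to Msn, the moesin gene (r = 0.84, rho = 0.72). Reck was closest to Insl3, a hormone gene of theca cells (r = 0.89, rho = 0.90). Mmp15 was closest to Thy1 (r = 0.90), Mmp11 to Arhgef28 (r = 0.92), Mmp14 to Cadm4 (r = 0.87) and Mmp9 to Cygb (r = 0.87). None of these 8 genes had the same closest gene in both windows. A closest gene need not share the PFNA effect. In the ovulation window Fn1, Cygb and Msn moved in the direction of Timp3, Mmp9 and Timp1. Arhgef28 instead rose by 3.41 on the log2 scale (edgeR adjusted p = 9.8e-14) while Mmp11 fell. Ecm1 and Thy1 did not pass (edgeR adjusted p = 0.34 and 0.80) while Timp2 and Mmp15 rose.

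Other genes of the system were read from 4 lists. Of a list of 19 genes, the other MMP genes and Timp4, 2 were tested in the maturation window and neither passed. Ovulation libraries gave 9 tested genes, of which 6 were higher and 3 lower by edgeR, with a median log2 fold change of 1.67. Over all genes tested there, 38.0% were higher and 35.2% lower, with a median of 0.04. Mmp25, a membrane-anchored MMP of leukocytes, had 11 counts in total over the 12 control libraries, 6 of them at 0, and 105 to 214 counts in each of the 11 PFNA libraries. Its mean was 0.0679 CPM in controls and 9.33 CPM with PFNA. Mmp25 passed the filter on low counts only through the PFNA libraries, so it could only be called higher, and its p is not given. Mmp24 and Mmp28, also called higher, averaged 0.33 and 0.72 CPM in controls. The split and the median of the 9 genes thus depend in part on the filter. Mmp13, a collagenase, rose by 2.62 on the log2 scale (SE 0.38, edgeR adjusted p = 1.2e-06) and Mmp23 by 1.67 (SE 0.18, edgeR adjusted p = 5.2e-09). Mmp16, of the membrane type, fell by 1.57 (SE 0.23, edgeR adjusted p = 1.3e-06), Mmp19 by 1.11 (SE 0.21, edgeR adjusted p = 3.4e-05) and Mmp17 by 0.58 (SE 0.23, edgeR adjusted p = 0.023). In the same libraries 1 of 8 leukocyte markers tested was higher, with a median log2 fold change of 0.89 over the 8. Their sum ran from 4.48 to 133 CPM in controls, with a median of 30.3, and from 4.27 to 147 CPM with PFNA, with a median of 61.9. The part of leukocyte content in the Mmp25 values was not tested.

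**Figure D5:**
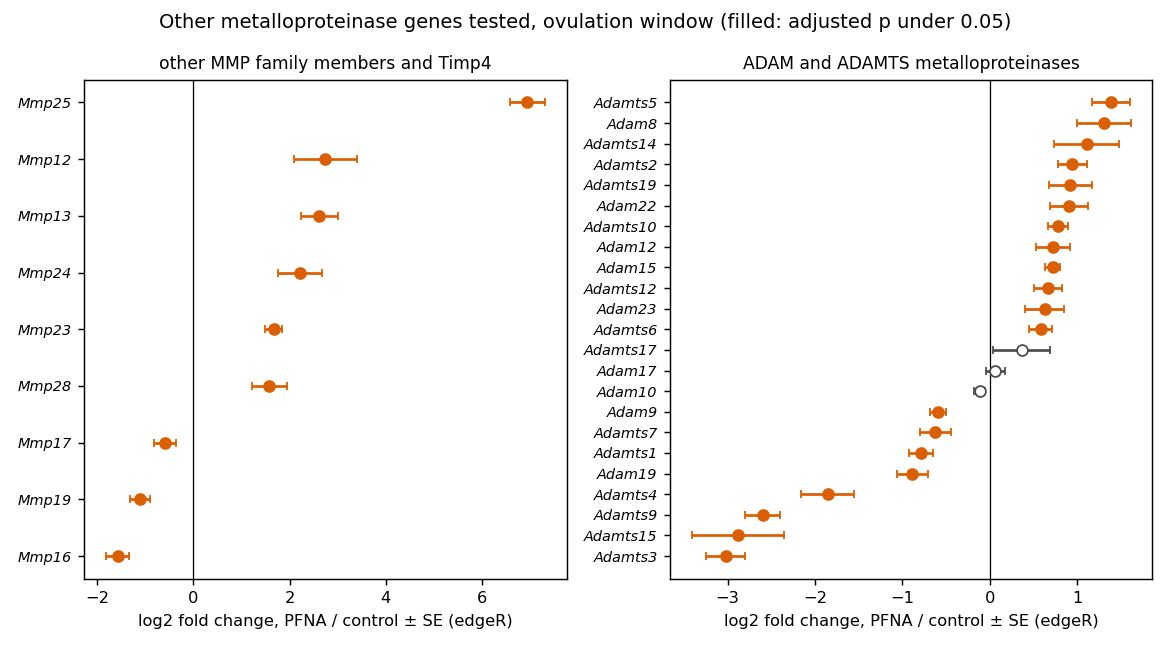
Log2 fold change of PFNA against control in the ovulation window (x axis, edgeR) with its SE for the 9 other MMP genes tested and the 23 ADAM and ADAMTS genes tested; filled orange points passed an adjusted p under 0.05. Mmp25 lies far to the right at 6.94, a fitted value against controls near 0, and Adamts3 lies lowest at -3.02. Mmp25 passed the filter on low counts only through the PFNA libraries.

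The ADAM and ADAMTS genes, metalloproteinases that TIMP3 can also inhibit in part, had 17 tested in the maturation window, with 1 higher and 2 lower, against 13.3% and 16.1% of all genes. Adamts2, which trims procollagen, rose by 0.95 (SE 0.20, limma adjusted p = 0.0010), and Adamts1, a versican-cleaving protease of the ovulating follicle, fell by 0.66 (SE 0.19, limma adjusted p = 0.011). Adamts5 fell by 0.48 (SE 0.12, limma adjusted p = 0.0065). Of 23 tested in the ovulation window 12 were higher and 8 lower, with a median log2 fold change of 0.59. Over all genes tested there, 38.0% were higher and 35.2% lower, with a median of 0.04. Adamts9 went from a mean of 441 to 72.7 CPM, a log2 change of -2.60 (SE 0.20, edgeR adjusted p = 3.3e-11), and Adamts3 from 23.7 to 2.91 CPM, a log2 change of -3.02 (SE 0.22, edgeR adjusted p = 7.7e-12). Adam9 fell by 0.59 (SE 0.09, edgeR adjusted p = 4.0e-06), while Adamts5 (1.39), Adamts10 (0.79) and Adam15 (0.72) rose. Adamts1, named above for the maturation window, fell in the ovulation window too, by 0.79 (SE 0.14, edgeR adjusted p = 1.5e-05).

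Genes that activate pro-MMPs or control that step had 4 higher and 2 lower of 20 tested in the maturation window, near the 13.3% and 16.1% of all genes. Furin, the convertase gene that followed Mmp14, rose by 0.39 (SE 0.12, limma adjusted p = 0.017) and Spock2 by 0.73 (SE 0.21, limma adjusted p = 0.012). Serpine2, an inhibitor of plasminogen activators, fell by 1.14 (SE 0.13, limma adjusted p = 5.0e-06), and Bsg by 0.25 (SE 0.07, limma adjusted p = 0.013). In the ovulation window 7 of 23 were higher and 11 lower, with a median of -0.45, against 38.0% and 35.2% of all genes and a median of 0.04. Plau (urokinase) went from 2106 to 342 CPM, a log2 change of -2.62 (SE 0.19, edgeR adjusted p = 8.8e-12). The convertase genes Pcsk5 and Furin had log2 fold changes of -2.32 (SE 0.16, edgeR adjusted p = 3.7e-12) and -1.92 (SE 0.10, edgeR adjusted p = 1.1e-14). Cav1 rose by 1.67 (SE 0.12, edgeR adjusted p = 7.2e-12) and Thbs2 by 1.58 (SE 0.22, edgeR adjusted p = 6.0e-07).

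Among matrix substrates 6 of 20 tested were higher and 1 lower in the maturation window, and 15 of 22 were higher and 1 lower in the ovulation window, with medians of 0.49 and 0.62. Over all genes tested, 13.3% were higher and 16.1% lower in maturation (median 0.02), and 38.0% higher and 35.2% lower in ovulation (median 0.04). The gene that fell in both was Vcan (versican), a proteoglycan of the expanding cumulus: it went from 84.0 to 29.9 TPM (-1.68 on the log2 scale, SE 0.30, limma adjusted p = 0.00023) and from 9598 to 1389 CPM (-2.79, SE 0.24, edgeR adjusted p = 1.5e-10). Of the basement membrane genes, Lamb1 rose by 0.88 (SE 0.17, limma adjusted p = 0.00047), Col4a5 by 0.71 (SE 0.14, limma adjusted p = 0.00054) and Col4a6 by 0.48 (SE 0.13, limma adjusted p = 0.0084) in the maturation window. With PFNA and hCG against hCG alone, Lama1 rose by 1.20 (SE 0.11, edgeR adjusted p = 4.4e-10), Col4a3 by 1.43 (SE 0.21, edgeR adjusted p = 9.5e-07) and Col4a5 by 0.86 (SE 0.12, edgeR adjusted p = 9.8e-07) in the ovulation window.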

How the data were processed

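RNA from mouse ovarian follicles was sequenced in 44 samples. In the maturation table, 22674 genes, the authors deposited values that behave as TPM: each library sums to 1000000 and 82.3% of values are not whole within 0.001. In the ovulation table, 18274 genes, the authors deposited estimated counts (14.9% not whole), which were rounded. The submitters' processing notes name Partek, Bowtie2 and HISAT2, with no role or version. Annotation and use of strand are not given in the sources used here. Positions of the maturation table had the GENCODE M21 start on GRCm38 for 99.4% of matched symbols, those of the ovulation table for 37.2%. Columns and samples share titles. The column left over, which differs by a letter from the title of maturation control replicate 6, was taken as that sample. Maturation control replicate 4 was not analysed here.

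The maturation window was tested with limma 3.58.1 (trend, robust) on log2(TPM + 1) for genes averaging 1 TPM or more. The ovulation window was tested with edgeR 4.0.16 in R 4.3.3 (filterByExpr, TMM, glmQLFit robust, glmQLFTest). That test gives no SE, so each edgeR SE here is the absolute log2 fold change divided by the square root of the F statistic. The difference between windows is that of the limma effects in each table, with Satterthwaite degrees of freedom. The p-values of these fits were Benjamini-Hochberg adjusted over all genes tested, with no test over a list. Fits were tested on simulated data in which few genes changed, up or down at random. In the ovulation window most genes were called, so the simulation does not cover scaling under shifts of that size. Levels per length in the ovulation window are counts per kilobase of the longest GENCODE coding transcript, scaled to a total of 1000000. Nothing in the labels says that samples came from separate animals, so p-values measure the spread between these samples, which may be technical. Within a group no library repeated another: the lowest chi-square per degree of freedom was 7.22 (ovulation) and the highest correlation 0.973 (maturation). The members and lists were chosen with earlier results of these data known. All 9 members were named whatever their result, and of each list the up to 3 higher and 3 lower genes with the smallest p per window. Some genes that this rule or the search for similar patterns names are not reported here. Alternatives covered the pseudocount, filters, scaling, DESeq2 1.42.0, an oocyte covariate, a replicate block and leaving out libraries. Those that left out single libraries from the difference between windows were chosen after seeing the data.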

Additional observations from a re-analysis of the deposited data

Results flagged for a closer look

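In the maturation window PFNA replicate 10 stood apart from the other 9 PFNA libraries. It had the highest Mmp2 (22.2 TPM, next 11.3), the highest Mmp11 (236 TPM, next 148) and the highest Timp2 (80.7 TPM, next 41.4). The same library had the highest summed markers of fibroblast-like stroma (1727 TPM, next 922), of leukocytes and macrophages (164 TPM, next 93.1), of ovarian surface epithelium (58.8 TPM, next 1.41) and of oocytes (429 TPM, next 184), and the lowest sum of granulosa markers (15081 TPM). These gaps exceeded Dixon's critical value for 10 libraries in 7 of 26 results searched. For normally distributed values chance gives 1 in 20, about 1.3. The ratio was taken on TPM and sums of TPM, which need not be so distributed, so 1.3 may be too low. The results share this library. Without it the log2 difference of Mmp2 was -0.35, of Mmp11 0.76 and of Timp2 0.08. The part of cell make-up in its values was not tested.

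The PFNA effect differed between windows, by a test of the difference itself, for Mmp11 (-1.45), Timp1 (-1.85) and Timp2 (0.97).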

How the results depend on the processing

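The counts of genes called and of members called stayed within 1.5 times their main values under all alternatives run. With each library left out in turn, 3586 to 4588 genes were called in the maturation window, 9654 to 10029 in the ovulation window and 7482 to 7686 for the difference, with 2 to 4, 5 to 6 and 3 of the 9 genes. The split of maturation calls was 1824 genes higher and 2206 lower as deposited, 1962 and 2505 with median-ratio size factors, and 2725 and 1878 after rescaling without mitochondrial-like genes. It was 2032 and 1426 with the oocyte covariate, and 1036 and 1855 with the replicate block. The mitochondrial-like genes are 7 genes with a transcript of which at least 50% of the 31-base stretches occur in mitochondrial transcripts. Their median share of the maturation TPM was 17.4% in controls and 21.1% with PFNA. Mmp2, which passed no test, changed sign: in maturation to 0.31 with the oocyte covariate and 0.058 without PFNA replicates 1 and 2, and in ovulation to 0.15 with limma on log2(CPM + 1), 0.13 with the replicate block, 0.016 without control replicate 2 and 0.057 without control replicate 7, the range over single libraries left out being -0.20 to 0.057. Timp3 passed in maturation after rescaling without mitochondrial-like genes (0.55, limma adjusted p = 0.039) and without PFNA replicates 1 and 2 (0.64, limma adjusted p = 0.013), and leaving out the same pair the difference between windows passed for Mmp14 (-0.45, limma adjusted p = 0.0498). The cause was not tested.

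Replicate numbers did not pair the samples: same-numbered libraries correlated at -0.14 to 0.17 over 9 maturation pairs and at -0.19 to 0.07 over 11 ovulation pairs, and 1 and 0 controls correlated best with their own number. With the replicate block, 2891, 9298 and 7278 genes were called in maturation, in ovulation and for the difference, with 2, 5 and 3 of the 9 genes. Mmp14 in maturation (0.40, limma adjusted p = 0.061) and Mmp11 in ovulation (-0.48, edgeR adjusted p = 0.057) no longer passed. Over all alternatives the adjusted p ranged from 0.0028 to 0.061 for Mmp14 and from 0.0016 to 0.057 for Mmp15 in maturation, and from 0.0082 to 0.089 for Mmp9 and from 0.00071 to 0.057 for Mmp11 in ovulation (limma, edgeR or DESeq2). Timp1, Timp2, Timp3 and Mmp15 in ovulation and Mmp11 in maturation kept their call and direction under all alternatives run. Depth behind the TPM values is unknown, so no counting error can be given for low values such as those of Mmp9.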
